A study of Mus musculus with 27 samples.

Results

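The 10 fibroblast growth factor (FGF) ligand genes *Fgf1*, *Fgf2*, *Fgf3*, *Fgf4*, *Fgf8*, *Fgf9*, *Fgf10*, *Fgf15*, *Fgf17* and *Fgf18* were followed through the differentiation of mouse embryonic stem cells (ESC) into gonadal cells. They were matched by symbol to the Ensembl identifiers of the RNA-seq files, which gave 10 genes of 48795. The symbols chose the genes and no measured value entered the rule. All 10 were among the 20839 genes that passed the filter on low counts, although several were near the floor of 3 counts in some groups. Bulk RNA-seq covered 9 groups of 3 libraries, all made from the XY ESC line TESCO-CFP;R26-rtTA, which is 1 clone, so that the fluorescent Sertoli reporter and the doxycycline-dependent activator were present in every group. The ESC group was the starting line, routinely kept with LIF and with PD0325901 and CHIR99021, inhibitors of MEK and GSK3, and the medium of the sequenced ESC is not given in the sources used here. EpiSC were epiblast-like cells after 60 h in basic FGF (bFGF, the FGF2 protein) at 12 ng/ml and Activin A at 20 ng/ml. M were early mesoderm cells after 36 h in bFGF at 20 ng/ml, BMP4 at 10 ng/ml and LY294002, a phosphatidylinositol 3-kinase inhibitor, at 10 µM. IM1 to IM5 were intermediate mesoderm (IM) media, each with bFGF at 5 ng/ml and BMP at 20 ng/ml. IM1 had nothing further, IM3 had retinoic acid (RA, 100 nM), IM2 had RA and Activin A (10 ng/ml), IM4 had RA and the GSK3 inhibitor CHIR99021 (CHIR, 0.3 µM), and IM5 had all 3. iSLC were induced Sertoli-like cells, made from IM3 cells with lentiviruses for *Nr5a1* and *Dmrt1* under doxycycline, kept in a Sertoli medium that holds FGF9 protein, Activin A, EGF, FSH, prostaglandin D2 and testosterone, and sorted for the CFP reporter. FGF protein was therefore added at every stage after ESC, and the values below are the cells' own transcripts.

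FGF ligands are secreted proteins that bind FGF receptors, which signal through the ERK kinase cascade among others. Most act on neighbouring cells together with heparan sulphate, and FGF15, the mouse counterpart of human FGF19, acts as a hormone with the coreceptor beta-Klotho. In the early embryo FGF4 drives exit from naive pluripotency, FGF8 and FGF4 are needed in the primitive streak where mesoderm forms, and FGF9 supports Sertoli cell fate in the XY gonad.

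Genome positions are on GRCm38, from GENCODE M21. *Fgf3* (chromosome 7, 144838083 to 144844436), *Fgf4* (chromosome 7, 144847367 to 144865243) and *Fgf15* (chromosome 7, 144896531 to 144900953) lie side by side on the plus strand within 62.9 kb. *Fgf9* (58070547 to 58112720, plus strand) and *Fgf17* (70636203 to 70642268, minus strand) are far apart on chromosome 14. *Fgf2* lies at 37348346 to 37410108 on chromosome 3 (plus), *Fgf8* at 45736798 to 45742915 on chromosome 19 (minus), *Fgf10* at 118669791 to 118792115 on chromosome 13 (plus) and *Fgf18* at 33117430 to 33147400 on chromosome 11 (minus). Exons of other genes cover 13.2% of the exon bases of *Fgf2* (*Nudt6* on the opposite strand and *Gm43439* on the same strand), 25.7% of *Fgf15* (mainly *Gm26793*, opposite strand) and 2.67% of *Fgf10* (*Gm16263*, opposite strand). Whether counting used strand is not given in the sources used here, so these 3 genes carry that uncertainty, and the other 7 share no exon base with another gene.

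RefSeq promoters (GRCm38.p6) were at hand for 6 of the 10 genes. The 250 bases before the start are shown for *Fgf4*, the leading ligand transcript of ESC, and for *Fgf3* and *Fgf10*, which rose together in M. All are on the plus strand and end at the RefSeq start. GENCODE also holds longer transcripts of these 3 genes that begin further upstream, so that each window lies inside the gene bounds given above. Capitals mark GGGCGG or its reverse CCGCCC (GC box, bound by SP and KLF factors) and CTTTGA or its reverse TCAAAG (core of the site of LEF and TCF factors).
Fgf4, chr7:144861136-144861385: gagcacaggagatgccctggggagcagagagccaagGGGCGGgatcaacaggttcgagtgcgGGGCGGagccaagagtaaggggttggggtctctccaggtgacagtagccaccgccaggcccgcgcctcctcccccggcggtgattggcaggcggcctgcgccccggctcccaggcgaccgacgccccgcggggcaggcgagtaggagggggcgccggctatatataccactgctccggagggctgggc
Fgf3, chr7:144838362-144838611: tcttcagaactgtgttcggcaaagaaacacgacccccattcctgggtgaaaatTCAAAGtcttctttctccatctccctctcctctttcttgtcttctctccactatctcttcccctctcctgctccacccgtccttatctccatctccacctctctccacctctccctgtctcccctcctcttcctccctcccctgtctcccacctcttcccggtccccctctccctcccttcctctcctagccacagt
Fgf10, chr13:118714449-118714698: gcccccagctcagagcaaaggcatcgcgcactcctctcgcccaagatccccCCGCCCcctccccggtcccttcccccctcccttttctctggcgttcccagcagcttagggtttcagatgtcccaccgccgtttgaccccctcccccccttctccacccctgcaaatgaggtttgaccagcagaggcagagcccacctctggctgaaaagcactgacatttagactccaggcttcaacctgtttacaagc
The windows of *Fgf4*, *Fgf10* and *Fgf3* hold 71.2%, 61.2% and 55.2% G and C, and the median over all 32851 promoters is 52.4%. A GC box on either strand stood in 4 of the 6 windows, those of *Fgf4*, *Fgf10*, *Fgf2* and *Fgf18*, and in 32.7% of all promoters. The CTTTGA core stood in that of *Fgf3* only among the members with a promoter, and in 13.8% of all promoters. The TATA box TATAAA, the T-box half-site AGGTGTGA, the octamer ATGCAAAT and the nuclear receptor half-site AGGTCA (12.4%, 1.12%, 1.6% and 14.0% of all promoters) were in none of the 6 windows on either strand.

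Expected counts, RSEM's estimate of the fragments of a gene, summed to 35923040 to 84876603 per library. Defining markers followed the labels in ESC (*Esrrb* 154 TPM, RSEM's length-scaled share of a library), EpiSC (*Otx2* 97.2 TPM, but also the mesoderm marker *T* at 238 TPM) and M (*T* 502 and *Msgn1* 64.4 TPM). In IM3, *Wt1* stood at 149 ± 14.4 TPM (SD, n = 3), but *Pax2* at 0.0367, *Lhx1* at 0.443 and *Osr1* at 1.11 TPM. In iSLC, *Gata4* (161 TPM) and *Sox9* (24.8 TPM) were present, while *Amh* (0.56 TPM) and *Ptgds* (0.493 TPM) were near 0. The summed CPM (counts scaled to library totals) of 6 Sertoli genes, which include these, was lower in iSLC (304 to 327) than in IM3 (482 to 573). The summed CPM of 6 red blood cell genes was 0.38 to 1.39 in 15 libraries, those of EpiSC, IM1, IM2, IM5 and iSLC, and 3.9 to 27.1 in the other 12. The side and the culture condition cannot be told apart in a comparison that crosses the split, so values of other groups on 1 side are set beside it. Those are different steps of culture and not a repeat of the comparison, and the part of the side in any result was not tested.

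The transcripts of the 10 ligands together peaked in M and were far lower in every IM group and in iSLC, and the gene that led the sum changed from stage to stage. Compared per length in TPM, ESC had a sum of 126 ± 3.32, EpiSC of 179 ± 6.44 and M of 299 ± 14.8 (SD, n = 3). It then lay at 27.1 ± 2.52 in IM1, 22.3 ± 0.625 in IM2, 33.5 ± 1.2 in IM3, 29.8 ± 1.53 in IM4, 25.6 ± 1.23 in IM5 and 23.7 ± 0.814 in iSLC. The highest library after M, at 34.3 TPM, was below the lowest before it, at 122.93 TPM. *Fgf4* held 67.3% of the sum in ESC and *Fgf8* held 60.8% in EpiSC and 59.2% in M. *Fgf15* led in IM1 (49.2%), IM2 (32.7%) and IM5 (49.4%), *Fgf10* in IM3 (31%) and IM4 (32.4%), and *Fgf2* in iSLC (51.1%). The SD of these shares over the 3 libraries was at most 2.6 percentage points. In bulk RNA, fewer cells that make a ligand and less RNA per cell cannot be told apart.

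**Figure D1:**
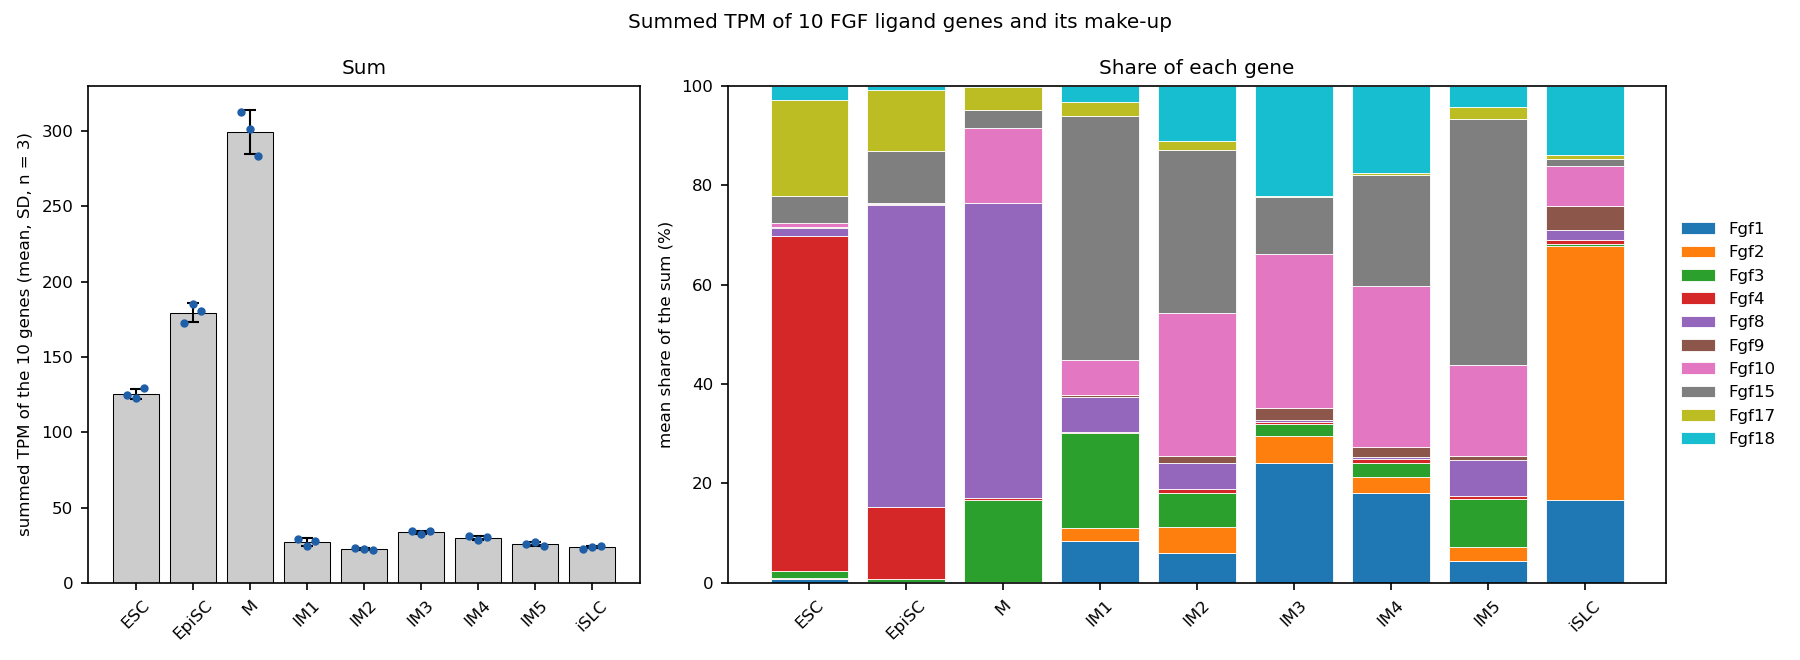
Left, the summed TPM of the 10 genes by group on a linear axis (grey bars, mean; error bars, SD of 3 libraries; points, libraries). Right, the mean share of each gene in that sum, with *Fgf4* leading in ESC, *Fgf8* in EpiSC and M, *Fgf15* or *Fgf10* in the IM groups and *Fgf2* in iSLC.

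*Fgf4*, the ligand of the inner cell mass and naive epiblast, was a transcript of the pluripotent groups. Its TPM was 85.23, 83.68 and 84.49 in the ESC libraries, 24.76, 26.1 and 26.84 in EpiSC and 1.43, 0.93 and 1.29 in M. Every later library lay between 0.03 and 0.34 TPM. The 3 early groups did not overlap with one another or with the later ones, whereas iSLC and the 5 IM groups overlapped throughout, with mean normalised counts of 9.36 to 17.1.

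*Fgf8*, *Fgf17* and *Fgf18* form the FGF8 subfamily, whose proteins favour the c splice forms of the receptors. They did not share a course. *Fgf8*, a ligand of the primitive streak, was at 1.97 to 2.39 TPM in ESC, then 105.04, 112.79 and 109.43 in EpiSC and 188.58, 183.72 and 159.96 in M, the highest level of any member in any group. It lay between 1.04 and 2.32 TPM in IM1, IM2 and IM5. In IM3 its expected counts were 6 over the 3 libraries, with a TPM of 0.22, 0.18 and 0, and in IM4 8, with 0.11, 0.19 and 0.16. No IM3 or IM4 library had more than 3 counts, so that *Fgf8* was at or under the floor there.

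*Fgf17*, which overlaps with *Fgf8* in the midbrain and streak, was already at 23.57, 22.68 and 26.41 TPM in ESC and at 21.56, 22.89 and 22.22 in EpiSC. These groups overlapped and were not told apart (adjusted p = 0.574). It was lower in M, at 12.93, 14.45 and 14.53 TPM, and below 1 TPM in every later library. Like *Fgf8* it was lowest in IM3 and IM4, with 0.56 to 0.95 TPM in IM1, 0.37 to 0.66 in IM2 and IM5 and 0 to 0.15 in IM3 and IM4, and iSLC (0.13 to 0.25) was not told apart from IM4 (adjusted p = 0.185).

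*Fgf18*, a ligand of bone, lung and somite development, had another course. It was lowest in M (1.01, 0.4 and 0.56 TPM), highest in IM3 (8.06, 6.19 and 8.08) and IM4 (6.82, 4.73 and 4.18), and at 3.15 to 4.01 in ESC and 3.09 to 3.51 in iSLC. IM1 (0.69 to 1.07 TPM) and IM5 (0.85 to 1.32) overlapped with each other and with M. Its counts were low, with a mean normalised count over all libraries of 89.5, and none of its 8 pairs of neighbours in the order of groups was told apart.

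*Fgf3* and *Fgf10* encode ligands that act through the b splice forms of the receptors, FGF3 in the inner ear and tail bud and FGF10 in lung and limb buds. Both were transcripts of M. *Fgf3* was at 49.43, 51.01 and 48.49 TPM in M and no library of another group exceeded 5.57, which was reached in IM1. It was lowest in iSLC, at 0.14, 0.07 and 0.13 TPM. *Fgf10* was at 48.97, 40.01 and 46.92 TPM in M. In contrast to *Fgf3* it stayed at 9.14 to 11 TPM in IM3 and IM4, which overlapped, and was lower in IM2 (6.14 to 6.94), IM5 (4.48 to 4.85) and IM1 (1.6 to 2.45). In iSLC it held 1.8 to 1.97 TPM, within the range of IM1 (adjusted p = 0.47), and its lowest group was EpiSC, with 0.36 to 0.44 TPM.

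*Fgf1* and *Fgf2* encode ligands without a classical signal peptide. *Fgf1* (chromosome 18, 38838673 to 38929472, minus strand) was near 0 in EpiSC (0.07, 0.11 and 0.11 TPM) and M (0.06, 0.06 and 0.19), although ESC held 0.8 to 1.21 TPM. It was highest in IM3, at 7.89, 8.67 and 7.73 TPM, and at 4.92, 5.72 and 5.42 in IM4, from which IM3 was not told apart (adjusted p = 0.0387). It held 3.61, 4.6 and 3.67 TPM in iSLC, 1.88 to 2.54 in IM1, 1.3 to 1.47 in IM2 and 0.98 to 1.41 in IM5. In normalised counts IM1 (184) and IM2 (167) overlapped and were not told apart, while their TPM did not overlap. *Fgf2* was an iSLC transcript. Its TPM there was 11.63, 12.39 and 12.3, and the highest other library, of IM3, had 2.23. ESC, EpiSC and M lay between 0.11 and 0.39 TPM. EpiSC was the lowest group, below ESC (adjusted p = 0.00391), and M and ESC were not told apart (adjusted p = 0.218).

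*Fgf9*, the ligand of the XY gonad and the FGF protein in the Sertoli medium, was the scarcest member. It was highest in iSLC, at 1.22, 1.06 and 1.12 TPM, from 70 to 87 expected counts per library. IM3 held 0.71, 1.01 and 0.6 TPM and IM4 0.39, 0.57 and 0.76, while ESC held 0.01, 0.09 and 0.06. The iSLC libraries did not overlap with IM3, but the difference did not pass the test (log2 fold change 0.50 ± 0.29 SE, adjusted p = 0.125).

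*Fgf15*, the hormone-like member, was present at every stage before iSLC. It was at 6.36 to 7.83 TPM in ESC, 17.55 to 19.73 in EpiSC, 9.82 to 10.88 in M, 11.53 to 14.58 in IM1, 6.87 to 7.73 in IM2, 3.48 to 4.12 in IM3, 6.1 to 6.96 in IM4 and 11.69 to 13.73 in IM5. Only iSLC stood far below, at 0.18, 0.4 and 0.46 TPM. In normalised counts IM1 and IM5 overlapped and were not told apart (adjusted p = 0.7), and neither were IM2 and IM4 (adjusted p = 0.534).

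**Figure D2:**
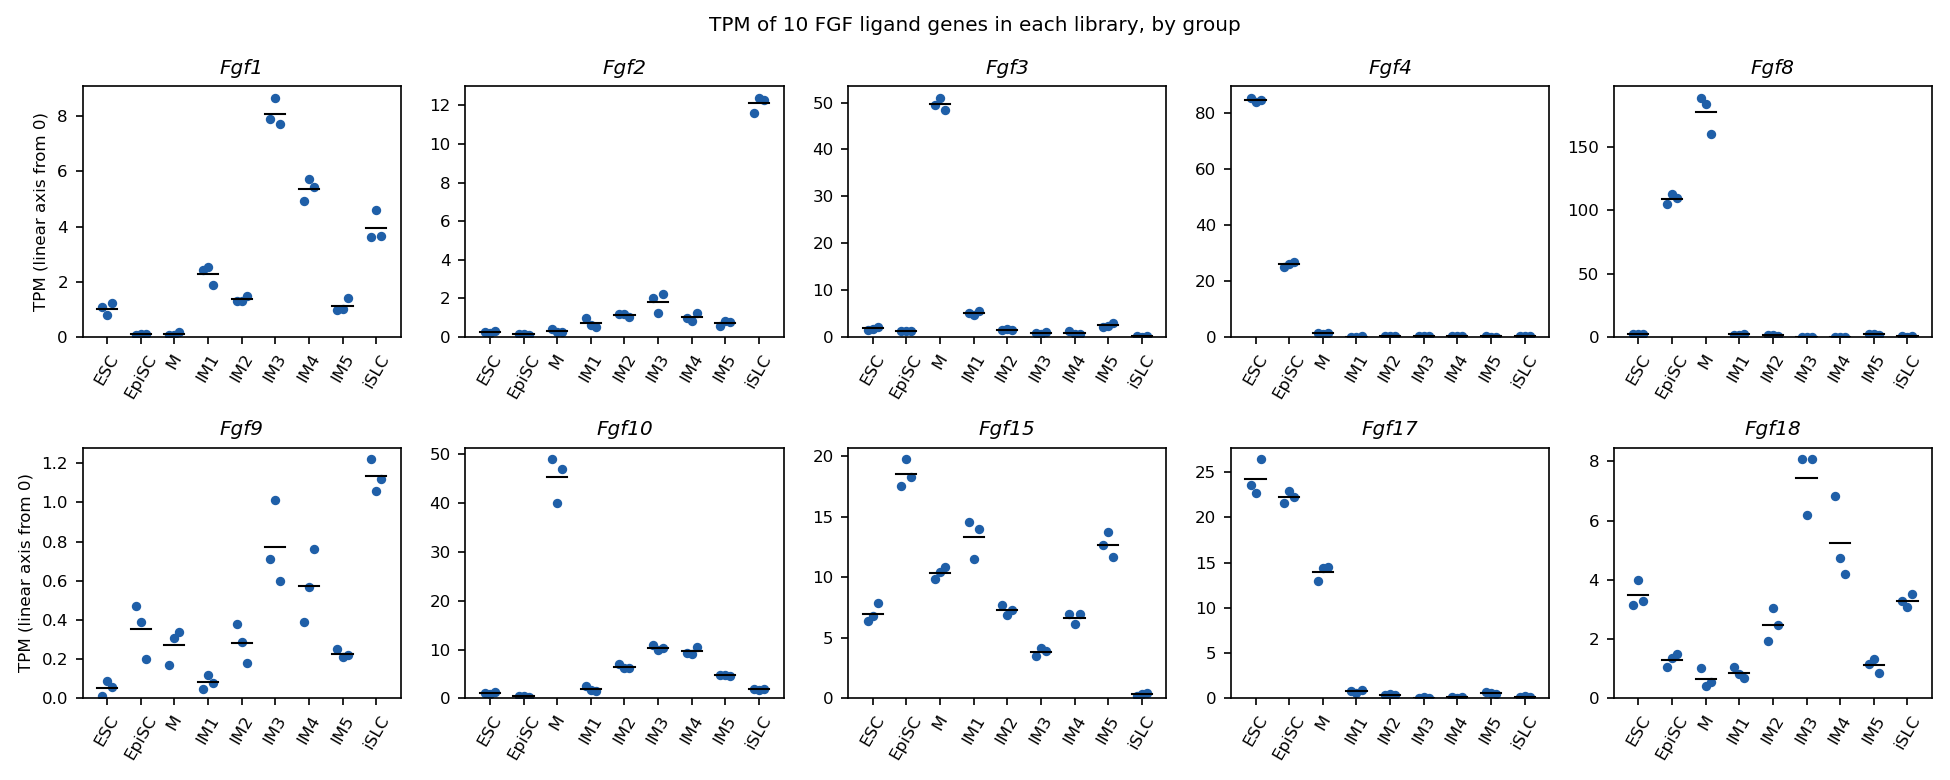
TPM of each gene (panels, linear axes from 0 with their own range) in the 3 libraries of each group (points; horizontal bar, mean). *Fgf3*, *Fgf8* and *Fgf10* peak in M, *Fgf4* in ESC, *Fgf1* and *Fgf18* in IM3, and *Fgf2* and *Fgf9* in iSLC.

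Levels of all 10 genes differed over the 9 groups by edgeR's quasi-likelihood F test, as they did for 96.4% of the 20839 genes tested, so that this test sets no member apart. The ratio of the highest to the lowest group mean of normalised counts ran from 9.95 in *Fgf18* and 20.2 in *Fgf9* to 871 in *Fgf3* and 1015 in *Fgf4*, and *Fgf8*, at or under the floor in IM3, had a ratio above these. Of the 80 pairs of groups next to each other in a gene's order, 29 differed and 51 were not told apart (adjusted p above 0.01, or overlapping libraries). For pairwise comparisons a gene was called differentially expressed (DE) when its adjusted p did not exceed 0.01, its levels differed 2-fold or more, and its mean normalised count reached 100 both across the 27 libraries and in 1 or both of the groups set against each other. *Fgf9* and *Fgf18* have means of 27.7 and 89.5 over all libraries and cannot reach that minimum, so a second count leaves it out. Errors of log2 fold changes are standard errors. The IM3 libraries enter 5 of the 10 comparisons and other groups also enter more than 1, so that these results are not independent of one another.

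The step from ESC to EpiSC asks which ligands change as naive cells become epiblast-like. *Fgf8* rose 65.9-fold and *Fgf15* rose 2.69-fold, while *Fgf4* fell 3.17-fold, *Fgf10* 2.65-fold and *Fgf1* 11.8-fold. The log2 fold changes were 6.04 ± 0.16 for *Fgf8* (adjusted p = 8.53e-21), 1.43 ± 0.11 for *Fgf15*, -1.66 ± 0.08 for *Fgf4* (adjusted p = 2.72e-15), -1.41 ± 0.16 for *Fgf10* and -3.56 ± 0.21 for *Fgf1*, and the libraries of these 5 genes did not overlap. Thus 5 of 10 members were DE, where 8.07% of all genes were. Without the count minimum 7 were called (18.4% of all genes), with *Fgf18* 2.68-fold lower and *Fgf9* higher on 62 against 10 counts, a ratio of 4.72 (exact 95% counting interval 2.4 to 10.3). The members' median log2 fold change was -0.55 and that of all genes -0.0026. These groups lie on opposite sides of the red blood cell gene split, and M is on the side of ESC. Compared with ESC, M held 81.5-fold more *Fgf8* (log2 fold change 6.35 ± 0.16), 70.7-fold less *Fgf4* (-6.14 ± 0.11) and 13.4-fold less *Fgf1* (-3.74 ± 0.23), as EpiSC did in direction. *Fgf10* was 41.3-fold higher in M where it was lower in EpiSC, and *Fgf15* was 1.44-fold higher, under the fold minimum. Early mesoderm markers moved with this step, *T* from 2.53 to 238 TPM, *Mixl1* from 0.807 to 40.5 TPM and the summed CPM of the 4 genes of that list from 3.19 to 4.45 in ESC to 267 to 287 in EpiSC, and their part in the *Fgf8* level was not tested.

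From EpiSC to M, mesoderm induction, *Fgf10* rose 109-fold and *Fgf3* 36.8-fold, and *Fgf4* fell 22.3-fold. Mean normalised counts went from 63.3 ± 6.72 to 6906 ± 464 for *Fgf10* and from 110 ± 5.15 to 4060 ± 283 for *Fgf3* (SD, n = 3), with adjusted p = 2.25e-24 and 2.83e-22. These 3 of 10 members were DE, where 14.5% of all genes were, and leaving out the minimum added *Fgf18* (2.12-fold lower, 4 members against 28% of all genes). *Fgf8* was 1.24-fold higher in M, which did not pass the threshold (log2 fold change 0.31 ± 0.11, adjusted p = 0.0144). *Fgf17* was 1.68-fold and *Fgf15* 1.86-fold lower, both with adjusted p below the threshold and a fold under 2. Compared with ESC, on the same side of the split as M, *Fgf10* was 41.3-fold and *Fgf3* 26.4-fold higher.

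From M to the IM media most of the early ligands fell. In IM1, *Fgf8* fell 91.3-fold, *Fgf10* 25.3-fold, *Fgf17* 19.5-fold, *Fgf4* 13.9-fold and *Fgf3* 10.5-fold, and *Fgf1* rose 19.1-fold. That makes 6 of 10 members DE (5 lower, 1 higher), where 15.7% of all genes were DE, 5.94% lower and 9.72% higher. Without the minimum *Fgf9* was also called (2.78-fold lower), which makes 7 against 27.9% of all genes. M and IM1 lie on opposite sides of the split. Against EpiSC, on the side of IM1, *Fgf8* was 73.9-fold, *Fgf17* 32.8-fold and *Fgf4* 309-fold lower in IM1 and *Fgf1* 16.8-fold higher, but *Fgf10* was 4.32-fold (log2 fold change 2.11 ± 0.14) and *Fgf3* 3.52-fold higher (1.82 ± 0.12), the direction opposite to that against M. In IM3 against M, which lie on the same side of the split, 8 of 10 were DE, 6 lower and 2 higher, and 14.9% of all genes were, 5.66% lower and 9.26% higher. *Fgf3* fell 82.3-fold, *Fgf4* 9.63-fold, *Fgf10* 4.95-fold and *Fgf15* 3.16-fold, while *Fgf1* rose 87.8-fold (log2 fold change 6.46 ± 0.20, adjusted p = 2.05e-20) and *Fgf2* 4.28-fold. For *Fgf8* the ratio of M to IM3 rests on 12348 against 6 counts and was 1750 (804 to 4771). For *Fgf17* it rests on 2190 against 8 counts and was 233 (118 to 540). These intervals cover counting error only. Without the count minimum *Fgf18* (9.9-fold higher) and *Fgf9* (2.55-fold higher) were also called, which makes 10 members against 25.9% of all genes. The members' median log2 fold change was -1.98 in this comparison and that of all genes was 0.

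**Figure D3:**
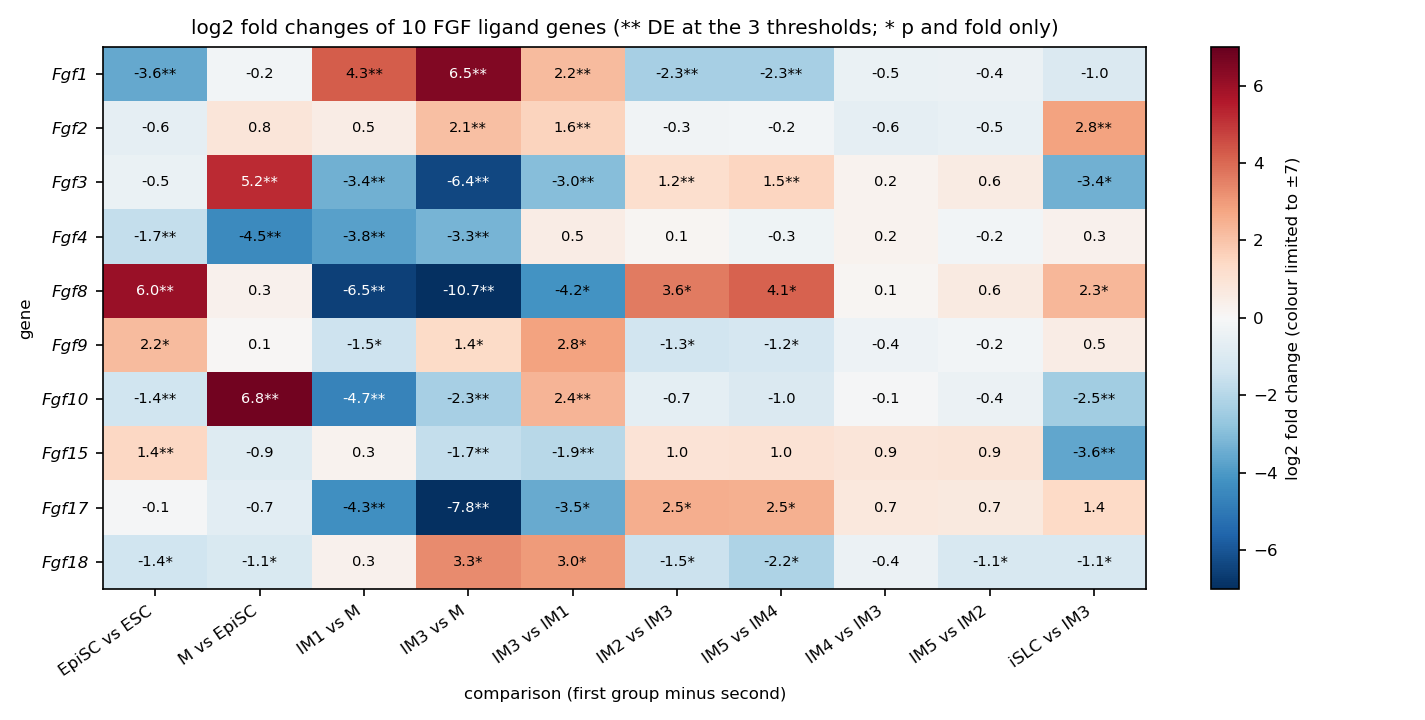
log2 fold changes (colour, limited to ±7; numbers in cells) of the 10 genes (rows) in 10 comparisons (columns; first group minus second). Double asterisks mark DE genes and single asterisks those past the p and fold thresholds only, with 8 double asterisks in IM3 vs M and none in IM4 vs IM3 or IM5 vs IM2; fitted values of *Fgf8* and *Fgf17* against IM3 or IM4 rest on few counts.

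IM3 and IM1 differ in RA. *Fgf10* was 5.12-fold, *Fgf1* 4.6-fold and *Fgf2* 2.93-fold higher in IM3, and *Fgf3* was 7.87-fold and *Fgf15* 3.78-fold lower, which are the 5 DE members (6.34% of all genes were DE). Their log2 fold changes were 2.36 ± 0.11, 2.20 ± 0.13, 1.55 ± 0.12, -2.98 ± 0.15 and -1.92 ± 0.12, with no overlap of libraries. Without the minimum 9 members were called (12% of all genes), with *Fgf18* 7.9-fold higher in IM3 and *Fgf9* at 117 against 27 counts, a ratio of 7.04 (4.6 to 11.1). *Fgf8* had 187 counts in IM1 and 6 in IM3, a ratio of 19.2 (8.64 to 52.9), and *Fgf17* had 154 and 8, a ratio of 11.8 (5.86 to 27.9). *Fgf4* did not pass the test (adjusted p = 0.255). IM1 and IM3 lie on opposite sides of the split. Markers of other cell types also moved, with ranges over libraries of 18.5 to 26.1 CPM in IM1 and 0.254 to 0.446 in IM3 for the sum of 4 neural genes, nearly all of it *Sox3* in IM1 (20.1 TPM, with *Sox1* at 0.0367 TPM). The sums of 4 genes each were 314 to 340 and 163 to 186 CPM for endothelial and 61.6 to 75.5 and 109 to 213 CPM for cardiac genes, and the part of these cells was not tested. IM2 and IM1 lie on the same side and differ in RA and Activin A together. There *Fgf10* was 3.21-fold, *Fgf18* 2.78-fold, *Fgf9* 2.82-fold and *Fgf2* 2.43-fold higher in IM2, and *Fgf3* was 3.46-fold lower, each with an adjusted p under 0.01, whereas *Fgf1* was 1.11-fold lower (adjusted p = 0.447). *Fgf15* was 1.94-fold, *Fgf17* 1.97-fold and *Fgf8* 1.49-fold lower, the last with adjusted p = 0.0712. IM5, also on that side, adds CHIR. Against IM1 it held 2.45-fold more *Fgf10*, 1.67-fold more *Fgf2*, 2.31-fold less *Fgf3* and 1.49-fold less *Fgf1*. *Fgf8*, *Fgf15*, *Fgf17*, *Fgf18* and *Fgf9* were not told apart there (adjusted p = 0.897, 0.7, 0.29, 0.35 and 0.0104).

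Activin A can be compared without CHIR (IM2 against IM3) and with it (IM5 against IM4), in libraries that are not shared. In both, *Fgf1* was lower with Activin A, by 5.09-fold and 4.97-fold, and *Fgf3* was higher, by 2.27-fold and 2.89-fold. These were the 2 DE members of each comparison, where 3.8% and 4.09% of all genes were DE. By limma on log2(TPM + 1) and on log2(TPM + 0.1) 1 member was called in IM2 against IM3, and *Fgf3* lost its call there, as it did in IM5 against IM4 on log2(TPM + 1). Without the count minimum 6 members were called in each, against 7.24% and 8% of all genes, and they were *Fgf1*, *Fgf3*, *Fgf8*, *Fgf9*, *Fgf17* and *Fgf18* both times. *Fgf18* was 2.84-fold and 4.51-fold lower with Activin A and *Fgf9* 2.52-fold and 2.23-fold lower. *Fgf8* had 101 counts in IM2 against 6 in IM3, a ratio of 12.9 (5.71 to 35.9), and 171 in IM5 against 8 in IM4, a ratio of 18 (8.92 to 42.3). *Fgf17* gave 6.02 (2.87 to 14.5) and 5.73 (3.38 to 10.4). *Fgf15* was 1.94-fold and 1.99-fold higher and *Fgf10* 1.59-fold and 1.99-fold lower, with adjusted p at most 3.26e-06 and each fold under 2. The 10 pairs of log2 fold changes had the same sign in 9 genes, the exception being *Fgf4*, and their Pearson r across these genes was 0.989, as a description over genes that are not independent replicates. The groups with Activin A (IM2, IM5) and without it (IM3, IM4) are on opposite sides of the split of the libraries, so that Activin A and that side cannot be told apart in either comparison.

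**Figure D4:**
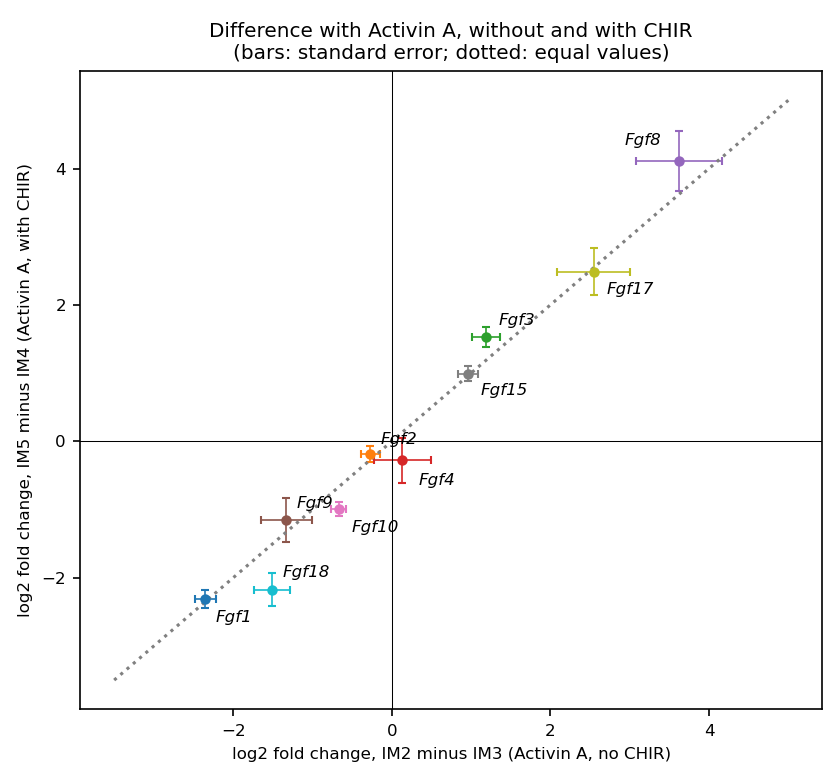
log2 fold change with Activin A in the absence of CHIR (x axis, IM2 minus IM3) against that in its presence (y axis, IM5 minus IM4) for the 10 genes (points; bars, standard error; dotted line, equal values). *Fgf8*, *Fgf17*, *Fgf3* and *Fgf15* are higher and *Fgf1*, *Fgf18*, *Fgf9*, *Fgf10* and *Fgf2* lower with Activin A in both, and *Fgf4* lies near 0.

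The interaction of Activin A with CHIR passed the thresholds in 0 of 10 members by edgeR (lowest adjusted p = 0.402, *Fgf10*), and 1 member had an unadjusted p under 0.05. By DESeq2 and by limma the count was also 0, and 0.0336% of all genes were DE, or 0.0432% without the count minimum. CHIR, at 0.3 µM, was compared without and with Activin A. In IM4 against IM3, 0 of 10 members were DE by edgeR, DESeq2 and limma, 3 had an unadjusted p under 0.05, and 0.101% of all genes were DE (0.173% without the count minimum, and 0 members). The members with an adjusted p under 0.01 were 1.81-fold higher *Fgf15* (log2 fold change 0.86 ± 0.13, adjusted p = 0.000197) and 1.54-fold lower *Fgf2* (-0.63 ± 0.12, adjusted p = 0.00282), neither reaching a fold of 2. *Fgf8* was at or under the floor in both groups and has no fold. In IM5 against IM2, 0 of 10 were DE by the 3 tools and 8 had an unadjusted p under 0.05, against 0.235% of all genes DE and 0.485% without the count minimum. *Fgf15* was again higher, by 1.85-fold, and *Fgf2* lower, by 1.46-fold. *Fgf3* was 1.5-fold higher (adjusted p = 0.00593), and *Fgf18* was 2.14-fold lower (adjusted p = 0.00628), which counts only without the minimum. Each of these comparisons lies within 1 side of the split.

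From IM3 to iSLC, *Fgf2* rose 7.07-fold, from 265 ± 21.9 to 1872 ± 41.2 normalised counts (SD, n = 3; log2 fold change 2.82 ± 0.11, adjusted p = 2.92e-18). *Fgf15* fell 12.3-fold (-3.61 ± 0.20) and *Fgf10* fell 5.46-fold (-2.45 ± 0.11). These 3 of 10 were DE, where 19.2% of all genes were. Without the minimum 6 were called, against 33.7% of all genes, and *Fgf18* was 2.14-fold lower and *Fgf3* lower on 15 against 114 counts, a ratio of IM3 to iSLC of 10.7 (6.23 to 19.8). *Fgf8* had 44 counts in iSLC against 6 in IM3, a ratio of 5.2 (2.21 to 14.9), and its TPM of 0.22 to 0.71 stayed below that of IM1. *Fgf1* was 1.99-fold lower, just under the fold minimum (adjusted p = 4.21e-08). The 2 groups differ in the sorting, the medium and the lentiviruses together, which cannot be told apart, and lie on opposite sides of the split. The summed CPM of 4 fibroblast genes went from 2749 to 3573 in IM3 to 14194 to 14559 in iSLC (*Col1a1* 728 and 2463 TPM), that of 4 endothelial genes from 163 to 186 to 7.2 to 8.42 and that of 4 endoderm genes from 106 to 120 to 6.33 to 11.1. Their part in the ligand levels was not tested. Against IM2, on the side of iSLC, *Fgf2* was 8.51-fold higher, *Fgf15* 23.8-fold, *Fgf3* 23.7-fold and *Fgf10* 3.43-fold lower in iSLC. *Fgf10* was not told apart from IM1 (adjusted p = 0.47). Other members turned direction on that side. *Fgf18* was 3.69-fold and 2.84-fold higher in iSLC than in IM1 and IM5, and not told apart from IM2 (adjusted p = 0.119). *Fgf8* was 2.46-fold lower than in IM2, and *Fgf1* 2.32-fold, 2.56-fold and 3.45-fold higher than in IM1, IM2 and IM5.

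*Fgf3*, *Fgf4* and *Fgf15* follow each other within 62.9 kb of chromosome 7, with 31.3 kb from *Fgf4* to *Fgf15*. From the end of *Fgf3* to the outermost GENCODE start of *Fgf4* are 2.93 kb, while the RefSeq start, after the promoter window that ends at 144861385, lies further downstream. They peaked in different groups, *Fgf4* in ESC (9497 ± 382 normalised counts), *Fgf15* in EpiSC (1207 ± 72.8) and *Fgf3* in M (4060 ± 283). From EpiSC to M, *Fgf3* rose 36.8-fold while *Fgf4*, its neighbour, fell 22.3-fold. In IM5, *Fgf15* (738 ± 57.4) and *Fgf3* (168 ± 0.322) had higher means than in IM3 (206 ± 15.7 and 48.9 ± 6.43), and *Fgf4* was at 13.1 ± 4.99 in IM5 and 14 ± 2.05 in IM3. IM5 and IM3 differ in Activin A, CHIR and the side of the red blood cell gene split, which cannot be told apart here. The other protein-coding genes within 200 kb on either side were *Ano1* (a chloride channel), *LTO1* and *Ccnd1* (cyclin D1). *Ano1* had its lowest level in EpiSC (32 normalised counts) and its highest in IM2 (1158), and it was DE in 5 of the comparisons. *Ccnd1* stayed between 7382 and 17436 normalised counts over the groups and was DE in 1, IM3 against M (log2 fold change -1.09 ± 0.05). *LTO1* ranged from 868 to 1836.

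**Figure D5:**
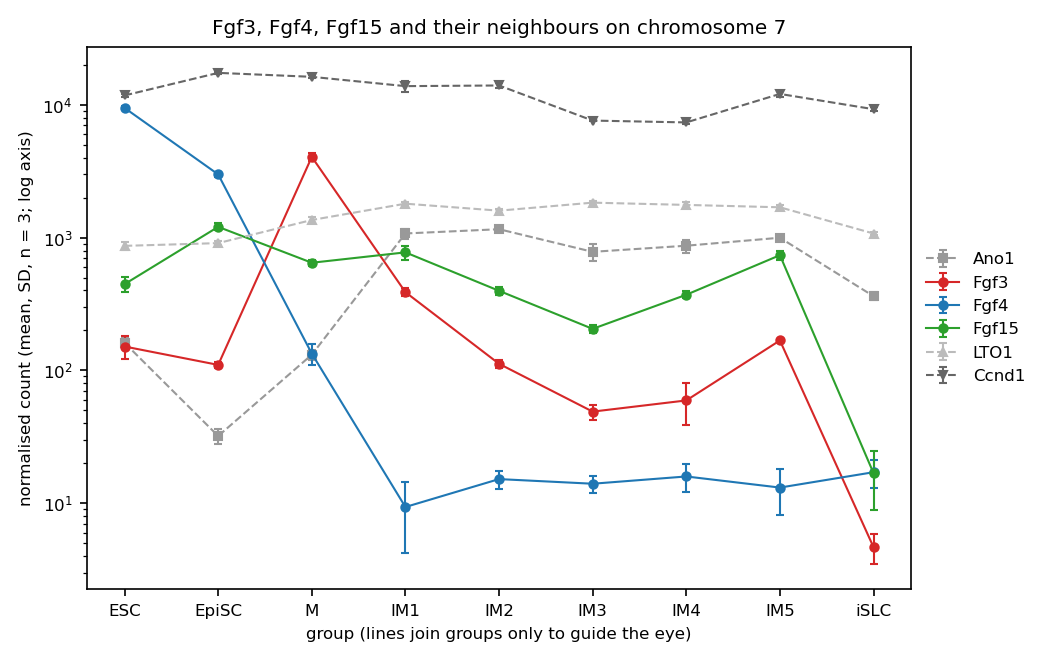
Normalised counts (mean and SD of 3 libraries, log axis) by group of the chromosome 7 genes *Fgf3*, *Fgf4* and *Fgf15* (solid lines) and of their protein-coding neighbours *Ano1*, *LTO1* and *Ccnd1* (dashed lines). *Fgf4* declines from ESC onward, *Fgf3* peaks in M and *Fgf15* is lowest in iSLC, while *Ccnd1* stays between 7382 and 17436.

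RSEM weights a gene's length by the transcripts it assigns reads to, so that the mean transcript length is a readout of isoform use that the levels do not hold. For *Fgf8*, with 6 transcripts in the files, it was 1018 to 1024 bases in the 3 EpiSC libraries and 858 to 880 in the 3 M libraries, which do not overlap, from 12219 and 12348 counts in all. No other group had enough *Fgf8* counts to give it. Among the 6 groups where *Fgf3* averaged at least 100 counts, 4 had 2299 bases in every library. *Fgf4* had 3030 and *Fgf10* 4114 bases in every group where it was read. *Fgf17* had only 1 transcript to assign reads to, so that its 1687 bases are fixed and hold no readout of isoform use. *Fgf1* varied from 2094 to 3981 bases between libraries, with IM1 lowest (2094 to 2937) and its range overlapping with that of ESC (2934 to 3981) and IM5 (2911 to 3459). *Fgf2* varied from 2624 to 5973 bases, and was at 4485 to 4937 in iSLC. TPM is divided by this length, and *Fgf8* stood at 109 ± 3.89 TPM in EpiSC and 177 ± 15.3 in M, while normalised counts differed 1.24-fold.

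The genes whose course over the 9 group means was most like that of a member were listed as a description (Pearson r of log2 CPM over 9 groups). For *Fgf4* they were the zinc finger genes *Zfp534*, *Zfp989* and *Zfp980*, all on chromosome 4 (r = 0.998 to 0.999). For *Fgf8* they were *T*, the streak transcription factor (r = 0.985), *Rbck1* and *Il17rd*, an antagonist of FGF signalling (r = 0.975). *Fgf17* was closest to *Hook2*, *Nlrp12* and *Zic5* (r = 0.990 to 0.992), *Fgf3* to *Skap1*, *Frg1* and *L1cam* (0.969 to 0.986), *Fgf10* to *Wnk1*, *Rhbdd2* and *Dlg3* (0.951 to 0.959) and *Fgf2* to *Fam214a*, *Bicc1* and *Podxl2* (0.981 to 0.987). *Fgf15* was closest to *Gm2000*, *Rps7* and *Polr2j* (0.984 to 0.986), *Fgf1* to *Pcyt1a*, *Skida1* and *Atxn2* (0.970 to 0.971), *Fgf9* to *Lbh*, *Arnt2* and *Casp2* (0.937 to 0.948) and *Fgf18* to *Foxp1*, *Ush1g* and *Pip5k1b* (0.932 to 0.938). Among the members themselves *Fgf4* and *Fgf17* were the most alike (r = 0.871) and *Fgf1* and *Fgf8* the most opposed (r = -0.994).

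Of the other 12 FGF genes, 7 passed the low-count filter. From ESC to EpiSC 2 of 7 were DE (8.07% of all genes), and from EpiSC to M 2 of 7 (14.5%). From M it was 2 of 7 in IM1 (15.7%) and in IM3 (14.9%), and from IM3 to iSLC 1 of 7 (19.2%). *Fgf5*, the classical epiblast ligand, rose from 3.34 ± 0.43 TPM in ESC to 119 ± 1.83 in EpiSC (log2 fold change 5.24 ± 0.15), slightly above *Fgf8* in that group (109 ± 3.89 TPM), and fell to 12.9 ± 1.68 in M (-3.30 ± 0.13). *Fgf13*, an intracellular family member, rose in EpiSC (1.48 ± 0.09) and fell from M to IM1 (-1.46 ± 0.09) and IM3 (-2.04 ± 0.10). *Fgf11*, also intracellular, fell from EpiSC to M (-2.09 ± 0.15) and rose from 0.753 ± 0.215 TPM in IM3 to 22.8 ± 0.0896 in iSLC (4.92 ± 0.15), so that it exceeded *Fgf2* there. With these genes the summed TPM of the 22 ligands and relatives was 312 ± 5.88 in EpiSC and 319 ± 14.9 in M.

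All 7 receptor and coreceptor genes were tested. *Fgfr1* was the highest receptor transcript in every group, from 71.4 ± 6.41 TPM in ESC to 172 ± 6.3 in iSLC, and was not DE in any comparison by edgeR. *Fgfr2* fell in EpiSC (log2 fold change -1.15 ± 0.08), rose in M (1.58 ± 0.08) to 38.2 ± 1.51 TPM, was highest in IM3 at 55.1 ± 0.0346 TPM, and fell in iSLC (-1.88 ± 0.08). *Fgfr3* rose in M (3.14 ± 0.11) and fell in iSLC (-3.52 ± 0.11). *Fgfr4* and *Klb*, the receptor and coreceptor of FGF15, rose together from M to IM1 (2.71 ± 0.15 and 3.89 ± 0.17) and to IM3 (2.00 ± 0.15 and 4.10 ± 0.17). Both fell in iSLC (-2.34 ± 0.15 and -2.98 ± 0.15), where *Fgf15* was lowest. They did not follow *Fgf15* elsewhere. In normalised counts *Fgfr4* was lowest in EpiSC (43.1), where *Fgf15* was highest (1207), and *Klb* was lowest in M (14.1). From M to IM3 *Fgf15* fell while both rose. *Fgfrl1*, a receptor without a kinase domain, rose in EpiSC, M and iSLC and reached 97.9 ± 1.25 TPM there. In all, 3 of 7 were DE from ESC to EpiSC (1 higher, against 8.07% of all genes DE in either direction) and 3 of 7 from EpiSC to M (all higher, against 14.5%). In IM1 and in IM3 against M 2 of 7 were DE and higher (against 15.7% and 14.9%), and in iSLC 5 of 7 (1 higher, against 19.2%). With Activin A in the presence of CHIR it was 1 of 7, *Fgfr2* (-1.08 ± 0.08, against 4.09%). Of the comparisons with DE genes here, only IM3 against M lies within 1 side of the red blood cell gene split. On that side *Fgfr2* had 2651 normalised counts in ESC and 3577 in M, and *Fgfr3* 191 and 956. On the other side *Fgfr2* had 1973 to 2814 in IM1, IM2 and IM5 and 1179 in iSLC. There *Fgfr3* had 1341 to 1751 and 135, and *Fgfrl1* 2834 to 3773 and 6482. The part of the side was not tested. *Kl* had group means of at most 0.193 TPM.

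The 12 ERK target and feedback genes were tested as a readout downstream of FGF among other signals. From ESC to EpiSC 4 of 12 were DE (8.07% of all genes) and all were higher, *Dusp4* (log2 fold change 2.83 ± 0.12), *Dusp6* (1.81 ± 0.08), *Il17rd* (1.36 ± 0.08) and *Spred3* (1.33 ± 0.04), with a list median of 0.59 against -0.0026 over all genes. ESC and M lie on 1 side of the red blood cell gene split and EpiSC and IM1 on the other. These genes had 361, 3397, 7084 and 1379 normalised counts in ESC and 12499, 17768, 33074 and 2329 in M. The ESC line was routinely kept with the MEK inhibitor PD0325901 and EpiSC received bFGF. The part of either in these levels was not tested. In M against EpiSC *Dusp4* (2.26 ± 0.10) and *Spred1* (1.06 ± 0.06) were higher, 2 of 12 against 14.5% of all genes, while the list median was -0.17 against -0.056. From M to IM1 4 of 12 fell and 1 rose (15.7% of all genes DE, list median -0.22 against 0.0016), and from M to IM3 5 fell and 1 rose (14.9%, list median -0.60 against 0). *Il17rd* fell most (-2.32 ± 0.08 and -3.18 ± 0.09), followed in IM3 by *Etv1* (-1.86 ± 0.09), and *Spry1* rose in both (1.42 ± 0.08 and 1.62 ± 0.08). *Etv1* (-1.35 ± 0.09) and *Spry4* (-1.16 ± 0.09) were lower in IM3 than in IM1. In normalised counts *Etv1* was at 382 ± 27.9 in IM3, 334 ± 5.56 in IM4, 1292 ± 56.1 in IM2, 1043 ± 36.3 in IM5 and 974 ± 152 in IM1. *Etv1* was higher with Activin A in IM2 (1.75 ± 0.09) and in IM5 (1.64 ± 0.09), where *Etv4* was higher too (1.03 ± 0.06). IM3 and IM4 lie on 1 side of the red blood cell gene split and IM1, IM2 and IM5 on the other. The side and the medium cannot be told apart in these differences. In iSLC 5 of 12 rose and 1 fell (19.2% of all genes DE), with *Etv1* (2.20 ± 0.09), *Spry2* (1.91 ± 0.07), *Spry4* (1.76 ± 0.09), *Spry1* (1.33 ± 0.07) and *Etv4* (1.18 ± 0.07) higher and *Dusp4* (-1.69 ± 0.10) lower. IM3 and iSLC lie on opposite sides of the split, and IM1, IM2 and IM5 are on the side of iSLC. In normalised counts *Etv4* was at 3439 in iSLC and at 2349 to 3595 in those groups, and *Etv1* at 1761 and 974 to 1292. *Spry1* was at 11361 and 3449 to 4016, and *Spry2* at 9595 and 2919 to 3393. *Spry4* was at 6079 and 2210 to 4005, and *Dusp4* at 3320 and 13845 to 16523. The iSLC medium holds FGF9 and EGF protein, and their part in these levels was not tested.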

How the data were processed

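RNA from 27 libraries, 9 groups of 3 by their labels, was sequenced as paired ends. Per the methods and the submitters' processing notes, the authors trimmed reads with Cutadapt 1.9.1, aligned them to GRCm38 with STAR 2.5.2a and ran RSEM 1.3.0. The expected counts they deposited are RSEM's estimates per gene, not normalised. TPM, as deposited, divides by transcript length and brings each library to 1 total. FPKM, which the authors also deposited, divides by length and by mapped fragments. RSEM divides fragments shared by genes with a model, which can shift low or overlapping genes. Replicates were not pooled.

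Names came from GENCODE M21 (99.3% of 48795 genes matched). Counts were rounded, filtered by filterByExpr (20839 genes kept) and fitted in 1 edgeR 4.0.16 model (R 4.3.3; TMM, glmQLFit, glmQLFTest), with Benjamini-Hochberg adjustment over all genes and thresholds as in the report. Normalised counts are scaled to the mean library. Ratios with at most 30 counts in a group have exact binomial intervals at 95%. TPM was used to compare genes. Scripts were tested on simulated data. Alternatives used DESeq2 1.42.0 and limma 3.58.1 (log2 of TPM plus 1 or 0.1) among others. The 10 members, the lists (other ligands, receptors, ERK targets, markers), the rule for named genes (members, the lists' largest DE changes, the 3 nearest patterns, genes within 200 kb) and the comparisons were chosen with earlier results of these data known. The study's figure legends call the replicates biological. Whether they came from separate differentiations is not given in the sources used here, so p-values measure the spread between these libraries. Replicates differed by more than counting noise (chi-square per gene 3.53 to 50.2).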

Additional observations from a re-analysis of the deposited data

How the results depend on the processing

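Of the 34 DE results of members, 566 of 578 values under an alternative kept their direction and their call, 12 lost the call and 0 changed sign. In the fit of only the groups compared 5 calls were lost to the count minimum alone, since the mean is then taken over fewer libraries. On log2(TPM + 1) 6 were lost, where the pseudocount shrinks low genes, and on log2(TPM + 0.1) 1, *Fgf3* in IM2 against IM3. Without a count minimum the number of members called became 9 in IM3 vs IM1, 6 in IM2 vs IM3, 6 in IM5 vs IM4, 1 in IM5 vs IM2 and 6 in iSLC vs IM3. Without a fold minimum it became 5 in M vs EpiSC, 4 in IM2 vs IM3, 4 in IM5 vs IM4, 2 in IM4 vs IM3 and 3 in IM5 vs IM2. On log2(TPM + 1) it was 3 in EpiSC vs ESC, 1 in IM2 vs IM3 and 1 in IM5 vs IM4, and on log2(TPM + 0.1) 1 in IM2 vs IM3. DESeq2's size factors or Wald test, an effective length offset, no low-count filter and an adjusted p under 0.05 left each number within 1.5 times.

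Leaving out each replicate gave 5 members in EpiSC vs ESC, 3 in M vs EpiSC, 6 in IM1 vs M, 8 in IM3 vs M, 5 in IM3 vs IM1, 2 to 3 in IM2 vs IM3 and in IM5 vs IM4, 3 to 4 in iSLC vs IM3, 0 in IM4 vs IM3, IM5 vs IM2 and the interaction, and 10 in the test over all groups. Pairs of neighbours not told apart numbered 51, and 43 to 53 under the alternatives run, which left no library out. FPKM in place of TPM gave the same leading shares apart from rounding. Within a library the 2 measures differ only by a constant factor, so that this could not have come out otherwise and tests nothing.

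Groups share replicate numbers, but deviations of same-numbered libraries correlated by 0.0024 on average over all pairs of groups, and in no comparison was every pair above 0.1. Pairing by number was therefore not detected, which does not exclude that same-numbered libraries shared a run of culture. Under a replicate block 5, 3, 6, 8, 5, 2, 2, 0, 0 and 3 members were DE in the 10 comparisons in the order of the report's fold change plot, the same numbers as without it. Depth limits *Fgf8* and *Fgf17* in IM3 and IM4 and *Fgf9* and *Fgf18* in most groups, where folds rest on few counts.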
